A study of Rattus norvegicus with 20 samples.

Results

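Epithelial cells of the footpad and of the oral mucosa were compared before and after they had been transplanted into newborn skin, and the difference between the response of the footpad and that of the oral mucosa was tested gene by gene. The comparison used 8 of the 20 arrays of the series, chosen by their labels, in 4 groups of 2 duplicate cultures. Footpad after and oral mucosa after were cells recovered from grafts and cultured again, and footpad before and oral mucosa before were cultured cells that had not been transplanted. All 4 groups came from Sprague-Dawley rats carrying the EGFP transgene of the green rat line, aged 200 days after birth, and all were grown on irradiated 3T3-J2 feeder cells, a line of mouse fibroblasts, and sorted on EGFP before RNA was extracted. For transplantation, the cells were placed in pockets of newborn mouse skin that were then grafted onto athymic mice, from which EGFP-positive cells were recovered several months later. A sort on EGFP leaves out mouse feeder and host cells but no rat cell of another kind. Nothing in the labels says that the 2 cultures of a group came from different rats or different grafts, so p-values measured the spread between duplicate cultures. Sample titles also carried a Roman numeral, which was V in oral mucosa before, IV in footpad before and III in both groups after transplantation, with a further code after transplantation that differed between the tissues. The study writes passages in Roman numerals, and if these are passages then passage and stage cannot be told apart within either tissue.

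Expression was measured on whole-transcript arrays as log2 intensity, and 14506 genes with 1 symbol of their own were described, each through the probe set with the highest mean. A stratified epithelium is renewed by cells of its basal layer, which attach to the basement membrane, divide, and give rise to differentiating cells that move to the surface. The footpad is covered by cornified epidermis, whose differentiating layers use the keratins Krt1 and Krt10, whereas the lining of the mouth is a mucosa in which Krt4 and Krt13 take that place. Keratinocytes in culture hold dividing and differentiating cells side by side, and transplantation into newborn skin places them among the signals under which hair follicles and epidermis are built. In a bulk sample, fewer cells of a kind and less RNA per cell cannot be told apart.

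The labelled tissues were first set against their markers. Krt14, a keratin of the basal layer, lay between 13.07 and 13.36 in the 8 arrays, and Krt5, its partner, had no probe set with a symbol of its own. Tp63, the factor by which the study defines its cells, stood at 9.56 and 9.53 in footpad after against 9.77 and 9.84 in footpad before. In the oral mucosa Tp63 stood at 10.05 and 10.05 after against 9.40 and 9.17 before. Neither change was called, but the difference of responses was, close to the 2-fold limit (-1.03, SE 0.12, limma adjusted p = 1.09e-05). Krt4 stood at 11.90 and 12.01 in oral mucosa before, but at 5.21 and 5.46 in oral mucosa after, close to the 4.82 and 4.70 of footpad after and the 5.13 and 4.91 of footpad before. Krt9, the keratin of palm and sole epidermis, was low in all 4 groups, with means from 4.80 in oral mucosa before to 5.22 in footpad after, so that the defining keratin of the footpad did not mark its cultures. Some position-dependent factors stayed apart between the tissues at both stages, and others did not. Of 21 genes of the homeobox clusters, 2 (Hoxa5 and Hoxa7) were called higher in the footpad after and the same 2 before. Hoxa5, a homeobox factor, stood at 6.36 and 6.16 in footpad after against 5.12 and 4.80 in oral mucosa after, and at 6.51 and 6.58 in footpad before against 4.02 and 5.09 in oral mucosa before. Nkx2-3, a homeobox factor of pharyngeal and gut linings, ran the other way, with 6.30 and 6.23 in footpad after against 7.73 and 7.75 in oral mucosa after, and 6.56 and 6.49 in footpad before against 8.03 and 7.95 in oral mucosa before. Pitx1, a homeobox factor, did not stay apart, with 8.58 and 8.63 in footpad after against 8.91 and 9.09 in oral mucosa after, and 6.08 and 5.90 in footpad before against 8.91 and 8.83 in oral mucosa before. Tfap2b, an AP-2 factor, was 0.87 higher in the footpad after, not called, and 2.02 higher before. Duplicates correlated at 0.991 to 0.996 over all probe sets, and oral mucosa before had the widest differences between its 2 arrays (SD 0.33 log2 units, against 0.21 to 0.27 in the other 3 groups).

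Of the genes that changed in both tissues, most changed in opposite directions. A gene was called when limma's moderated test gave a Benjamini-Hochberg adjusted p under 0.05 over all probe sets and the fold exceeded 2. 1344 genes were called in the footpad (9.27% of those tested; 5.25% higher and 4.02% lower after transplantation) and 723 in the oral mucosa (4.98%, with 1.91% higher and 3.07% lower). 255 genes were called in both. Of these, 140 rose in the footpad and fell in the oral mucosa, 53 fell in the footpad and rose in the oral mucosa, 26 rose in both and 36 fell in both. The opposed genes made up 75.7% of the genes called in both tissues, 14.4% of those called in the footpad and 26.7% of those called in the oral mucosa. The difference of the responses, footpad minus oral mucosa, passed the same test for all 193 opposed genes, whose choice fixes its direction, and for 7 of the 26 genes higher in both and 9 of the 36 lower in both. Over all genes it was called for 1462 genes with a higher value in the footpad response (10.1%) and 1039 with a lower one (7.16%). Over probe sets, higher calls made up 59.8% of the calls in the difference, and 72.5% once each array was centered on its own median, which moved the median difference over all probe sets by 0.16. In the oral mucosa, higher calls made up 41.1% of the calls, and 29.7% after the same centering, which moved the median change there by -0.14. Across the 14506 genes, the 2 responses had a Pearson correlation of -0.27 (Spearman -0.30), a description over genes, which are not independent replicates, of responses that share no array.

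**Figure D1:**
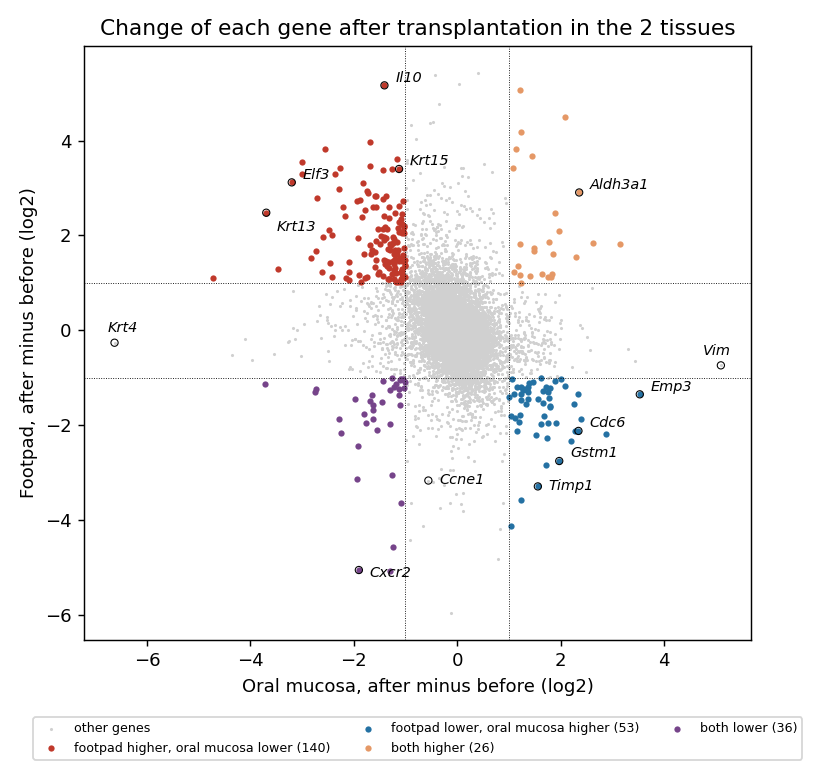
Change after transplantation of each of the 14506 genes in the oral mucosa (x axis, log2, after minus before) and in the footpad (y axis, log2, after minus before), each point 1 gene and dotted lines at a 2-fold change. The 140 genes higher in the footpad and lower in the oral mucosa (red) and the 53 with the reverse (blue) outnumber the 26 higher in both (orange) and the 36 lower in both (purple), and circled genes are named in the text.

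Krt15 and Elf3 both rose in the footpad and fell in the oral mucosa. Krt15, a keratin of basal cells that also marks the bulge of the hair follicle, stood at 10.60 and 10.95 in footpad after against 7.47 and 7.28 in footpad before, and 9.27 and 9.61 in oral mucosa after against 10.48 and 10.64 in oral mucosa before (log2 intensity). Footpad after and oral mucosa before overlapped at the top, oral mucosa after lay below them, and footpad before was the lowest group. The change was 3.40 (SE 0.14, adjusted p = 5.01e-10) in the footpad and -1.12 (SE 0.14, adjusted p = 3.79e-05) in the oral mucosa, and the difference of responses was 4.53 (SE 0.20, adjusted p = 1.12e-09). The oral mucosa change was close to the 2-fold limit, and without replicate 1 of oral mucosa after it was -0.96, no longer called. The list of basal layer genes did not move with Krt15. Of 16 measured, 1 rose and 2 fell in the footpad (6.25% and 12.5%, against 5.25% and 4.02% of all genes), with a median change of -0.41. In the oral mucosa 1 rose and 1 fell. The difference of responses was higher for 1 and lower for 3 (6.25% and 18.8%, against 10.1% and 7.16% of all genes). Elf3, an ETS factor of differentiating epithelia, stood at 8.24 and 8.38 in footpad after against 5.19 and 5.19 in footpad before, and 6.51 and 6.67 in oral mucosa after against 9.82 and 9.76 in oral mucosa before. The 4 groups did not overlap, and the order of the tissues turned around: oral mucosa was above footpad before transplantation and below it after. Elf3 changed by 3.12 (SE 0.15, adjusted p = 2.01e-09) in the footpad and by -3.20 (SE 0.15, adjusted p = 6.70e-09) in the oral mucosa, with a difference of 6.32 (SE 0.21, adjusted p = 1.29e-10).

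**Figure D2:**
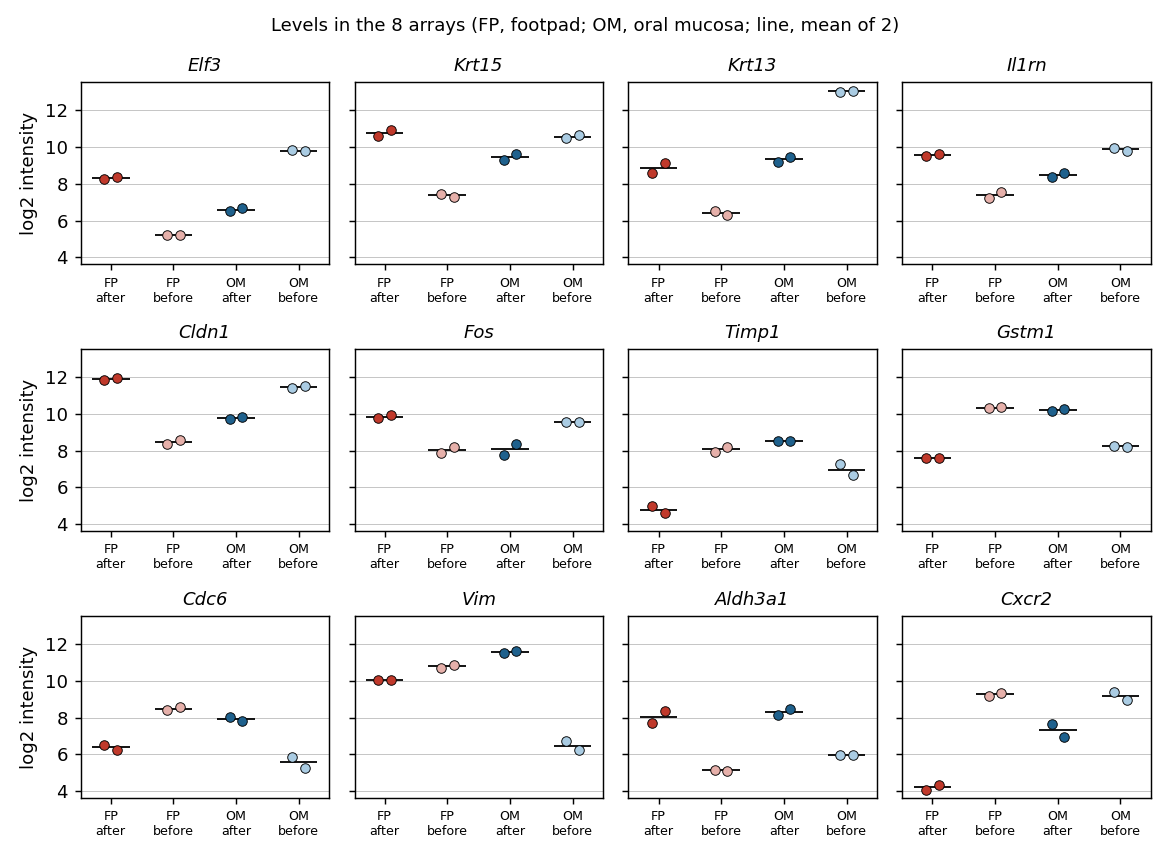
Log2 intensity (y axis) of 12 genes in each of the 8 arrays, with footpad after (FP after), footpad before, oral mucosa after (OM after) and oral mucosa before along the x axis, points for the 2 cultures and a line at their mean. In the panels of Elf3, Krt15, Krt13, Il1rn, Cldn1 and Fos, footpad after is above footpad before while oral mucosa after is below oral mucosa before, and in those of Timp1, Gstm1 and Cdc6 both steps are the reverse.

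The largest differences of responses among the genes higher in the footpad and lower in the oral mucosa fell on genes of unlike function. Il10, an anti-inflammatory cytokine, stood at 8.78 and 8.81 in footpad after against 3.81 and 3.46 in footpad before, and 4.05 and 3.89 in oral mucosa after against 5.46 and 5.30 in oral mucosa before. Footpad after was far above all other arrays, and the difference was 6.57 (SE 0.18, adjusted p = 3.67e-11). The other 3 groups lay near the low end of the scale, where it is not known whether values exceed background. Tcp11l2 stood at 9.51 and 9.81 in footpad after against 6.08 and 6.15 in footpad before, and 7.05 and 7.31 in oral mucosa after against 10.08 and 10.27 in oral mucosa before, so that footpad after and oral mucosa before were both high and the other 2 groups both low. The difference was 6.54 (SE 0.17, adjusted p = 3.13e-11). Slc30a2, a zinc transporter, stood at 9.43 and 9.90 in footpad after against 6.07 and 5.62 in footpad before, and 5.84 and 6.23 in oral mucosa after against 8.50 and 8.67 in oral mucosa before, with a difference of 6.37 (SE 0.31, adjusted p = 3.28e-09). Ephx1, the microsomal epoxide hydrolase, had the same 2 high and 2 low groups, with 9.91 and 10.11 in footpad after against 6.66 and 6.76 in footpad before, and 6.39 and 6.62 in oral mucosa after against 9.44 and 9.56 in oral mucosa before, and a difference of 6.30 (SE 0.21, adjusted p = 1.29e-10). Krt13 stood at 8.61 and 9.15 in footpad after against 6.50 and 6.30 in footpad before, and 9.21 and 9.48 in oral mucosa after against 12.99 and 13.08 in oral mucosa before. It gained 2.48 in the footpad without reaching the level it had in the oral mucosa before transplantation, and its difference was 6.17 (SE 0.24, adjusted p = 5.01e-10). Serpinb7, a serine protease inhibitor of cornified epithelium, stood at 8.85 and 9.00 in footpad after against 7.70 and 7.93 in footpad before, and 3.97 and 4.25 in oral mucosa after against 8.93 and 8.74 in oral mucosa before. Most of its difference of 5.84 (SE 0.23, adjusted p = 5.98e-10) came from the oral mucosa, and its footpad change of 1.11 was no longer called without replicate 1 of footpad before (1.00). Ppbp, the precursor of a chemokine for neutrophils, stood at 10.66 and 10.66 in footpad after against 7.02 and 7.47 in footpad before, and 9.49 and 9.34 in oral mucosa after against 11.67 and 11.72 in oral mucosa before, with a difference of 5.69 (SE 0.19, adjusted p = 1.29e-10).

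Among the genes lower in the footpad and higher in the oral mucosa, the largest difference was that of Cd200r1, an inhibitory receptor, which stood at 3.30 and 3.27 in footpad after against 7.26 and 7.57 in footpad before, and 4.79 and 4.37 in oral mucosa after against 3.49 and 3.58 in oral mucosa before. Its oral mucosa change of 1.05 was at the limit of 2-fold and was lost under median centering (0.91), whereas the difference was -5.17 (SE 0.23, adjusted p = 1.47e-09). Footpad after and both oral mucosa groups lay near the low end of the scale, where it is not known whether values exceed background. Acap1, an activator of GTP hydrolysis by Arf proteins, stood at 6.94 and 7.11 in footpad after against 9.19 and 9.22 in footpad before, and 10.29 and 10.30 in oral mucosa after against 7.57 and 7.27 in oral mucosa before. Oral mucosa after was here the highest group and footpad after the lowest, and the difference was -5.06 (SE 0.14, adjusted p = 3.42e-11). Emp3, a tetraspan membrane protein, stood at 9.85 and 9.72 in footpad after against 11.10 and 11.16 in footpad before, and 9.95 and 9.95 in oral mucosa after against 6.44 and 6.41 in oral mucosa before, so that oral mucosa before alone was low. Its difference was -4.88 (SE 0.14, adjusted p = 4.72e-11). Timp1, an inhibitor of matrix metalloproteinases, stood at 4.98 and 4.60 in footpad after against 7.93 and 8.23 in footpad before, and 8.51 and 8.54 in oral mucosa after against 7.27 and 6.66 in oral mucosa before, and footpad after alone was low (difference -4.85 (SE 0.25, adjusted p = 6.23e-09)). Slc7a8, a transporter of neutral amino acids, stood at 6.55 and 6.24 in footpad after against 9.94 and 9.98 in footpad before, and 9.49 and 9.32 in oral mucosa after against 8.30 and 8.02 in oral mucosa before. The difference of Slc7a8 was -4.81 (SE 0.16, adjusted p = 1.29e-10). Gstm1, a glutathione transferase of a family of close copies whose probes may share targets, stood at 7.60 and 7.59 in footpad after against 10.30 and 10.39 in footpad before, and 10.17 and 10.26 in oral mucosa after against 8.27 and 8.21 in oral mucosa before. Footpad before and oral mucosa after were alike and both high for Gstm1, and the difference was -4.72 (SE 0.16, adjusted p = 1.29e-10). Nppb, the precursor of brain natriuretic peptide, stood at 7.26 and 7.09 in footpad after against 9.88 and 10.15 in footpad before, and 7.95 and 7.52 in oral mucosa after against 6.47 and 5.57 in oral mucosa before, with a wide gap between the 2 arrays of oral mucosa before (difference -4.55 (SE 0.30, adjusted p = 5.59e-08)). Car2, a carbonic anhydrase, stood at 5.16 and 5.27 in footpad after against 7.52 and 7.55 in footpad before, and 9.21 and 9.28 in oral mucosa after against 7.19 and 6.89 in oral mucosa before. The difference of Car2 was -4.53 (SE 0.16, adjusted p = 2.48e-10).

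Genes of the cell cycle made up the most uniform group, and the 2 parts of the cycle did not move alike. Of 36 measured genes of DNA replication and S phase, 28 rose and 0 fell in the oral mucosa (median change 1.25), while 0 rose and 14 fell in the footpad (median -0.63). Of 36 genes of mitosis, 32 rose and 0 fell in the oral mucosa (median 1.48), but only 1 was called in the footpad (median -0.18), namely Mybl2, a transcription factor of the cycle. The median over all genes was -0.06 in the footpad and 0.05 in the oral mucosa. Of all genes, 5.25% rose and 4.02% fell in the footpad, and 1.91% rose and 3.07% fell in the oral mucosa. The counts of this list and of those below are to be read against these shares. The difference of responses was lower for 32 of the S phase genes and 32 of the mitosis genes, and higher for 1 and 0. Averaged over the S phase list, the level was 7.73 and 7.58 in footpad after against 8.40 and 8.52 in footpad before, and 8.19 and 8.18 in oral mucosa after against 7.05 and 6.83 in oral mucosa before. Averaged over the mitosis list it was 8.94 and 8.83 in footpad after against 8.98 and 9.11 in footpad before, and 9.09 and 9.09 in oral mucosa after against 7.80 and 7.51 in oral mucosa before. Oral mucosa before was thus the low group for both lists, and footpad after stood apart from the remaining groups for S phase alone.

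13 of the S phase genes were called in opposite directions in the 2 tissues, among them genes that load the replicative helicase. Cdc6, which loads it onto origins, stood at 6.49 and 6.26 in footpad after against 8.42 and 8.57 in footpad before, and 8.02 and 7.80 in oral mucosa after against 5.87 and 5.26 in oral mucosa before, with changes of -2.12 in the footpad and 2.34 in the oral mucosa (difference -4.46 (SE 0.23, adjusted p = 5.80e-09)). Mcm5, a subunit of that helicase, stood at 8.89 and 8.72 in footpad after against 10.38 and 10.43 in footpad before, and 10.02 and 10.00 in oral mucosa after against 8.30 and 8.13 in oral mucosa before. The difference of Mcm5 was -3.40 (SE 0.13, adjusted p = 3.47e-10). Both were lowest in oral mucosa before and next lowest in footpad after. Cdt1, the partner of Cdc6 in loading, stood at 6.72 and 6.52 in footpad after against 8.07 and 8.02 in footpad before, and 8.02 and 7.88 in oral mucosa after against 6.15 and 6.19 in oral mucosa before. The difference of Cdt1 was -3.21 (SE 0.12, adjusted p = 4.18e-10). Tyms, thymidylate synthase, stood at 5.81 and 5.61 in footpad after against 7.80 and 7.88 in footpad before, and 7.45 and 7.08 in oral mucosa after against 6.43 and 5.80 in oral mucosa before. The difference of Tyms was -3.28 (SE 0.26, adjusted p = 2.30e-07). Top2a, the topoisomerase that untangles chromosomes in mitosis, showed the other pattern, with 10.28 and 10.13 in footpad after against 9.97 and 10.00 in footpad before, and 10.52 and 10.30 in oral mucosa after against 8.55 and 8.27 in oral mucosa before. It was low in oral mucosa before only, and its footpad change of 0.22 did not pass the test (adjusted p = 0.156). Plk1, a mitotic kinase, likewise stood at 9.89 and 9.68 in footpad after against 10.23 and 10.28 in footpad before, and 10.22 and 10.23 in oral mucosa after against 8.73 and 8.38 in oral mucosa before. Ccne1, the cyclin of the entry into S phase, was among the S phase genes not called in the oral mucosa. It stood at 6.34 and 6.28 in footpad after against 9.44 and 9.50 in footpad before, and 7.96 and 7.95 in oral mucosa after against 8.60 and 8.43 in oral mucosa before, and fell by 3.16 in the footpad (oral mucosa change -0.56, difference -2.61 (SE 0.11, adjusted p = 9.16e-10)).

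The promoters of these genes are shown because the 2 lists hold different motifs within the same 300 bases, 250 before and 50 from the start of transcription on, as RefSeq gives them on GRCr8. Searched on both strands, an E2F motif (TTTCCCGC, TTTGGCGC, TTTCGCGC or TTTGCCGC, which can overlap one another on opposite strands) was found in 14 of the 30 S phase genes with a promoter in the table (46.7%) and in 1 of 30 mitosis genes (3.33%), against 2.25% of all 27457 promoters. The CHR motif (TTTGAA) was found in 3 S phase promoters (10%) and in 20 mitosis promoters (66.7%), against 18.1% of all. The motif CCAAT, also searched, did not separate the lists. It was found in 18 S phase promoters (60%) and in 21 mitosis promoters (70%), against 37.7% of all. Among the 42 promoters of genes lower in the footpad and higher in the oral mucosa, 7 held an E2F motif (16.7%; 5 of these 7 were replication or mitosis genes), and among the 113 of the reverse class, 1 (0.885%). The CHR motif was in 7 of the 42 promoters of the first class (16.7%). Mcm5 (chr19:13488563-13488862, plus strand) and Cdt1 (chr19:67528999-67529298, plus strand) are given with their E2F matches in capitals, and Top2a (chr10:84473044-84473343, minus strand) and Plk1 (chr1:186147408-186147707, plus strand) with their CHR match in capitals, each from 5′ to 3′ on the strand of the gene.
Mcm5: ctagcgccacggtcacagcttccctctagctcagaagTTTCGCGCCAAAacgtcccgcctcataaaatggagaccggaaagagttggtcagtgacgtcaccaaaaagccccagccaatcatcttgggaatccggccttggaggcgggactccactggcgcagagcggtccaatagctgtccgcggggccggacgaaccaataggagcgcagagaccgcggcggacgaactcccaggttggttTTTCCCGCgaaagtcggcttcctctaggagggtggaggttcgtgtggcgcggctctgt
Cdt1: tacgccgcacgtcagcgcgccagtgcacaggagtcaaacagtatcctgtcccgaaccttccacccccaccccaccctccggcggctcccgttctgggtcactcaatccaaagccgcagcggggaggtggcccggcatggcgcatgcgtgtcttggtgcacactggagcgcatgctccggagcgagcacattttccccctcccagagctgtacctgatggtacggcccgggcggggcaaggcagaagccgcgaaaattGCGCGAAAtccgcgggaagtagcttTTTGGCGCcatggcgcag
Top2a: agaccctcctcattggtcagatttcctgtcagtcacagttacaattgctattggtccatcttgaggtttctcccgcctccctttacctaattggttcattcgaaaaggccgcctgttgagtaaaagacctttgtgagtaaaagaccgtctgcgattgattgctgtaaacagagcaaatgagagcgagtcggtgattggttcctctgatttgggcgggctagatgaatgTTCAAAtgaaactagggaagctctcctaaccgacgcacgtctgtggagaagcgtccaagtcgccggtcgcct
Plk1: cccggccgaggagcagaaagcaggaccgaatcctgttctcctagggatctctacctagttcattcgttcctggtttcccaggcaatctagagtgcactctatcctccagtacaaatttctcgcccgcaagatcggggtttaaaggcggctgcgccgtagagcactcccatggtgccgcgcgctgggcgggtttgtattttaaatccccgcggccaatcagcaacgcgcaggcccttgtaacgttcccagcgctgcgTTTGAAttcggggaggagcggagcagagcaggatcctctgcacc
The match nearest to the start lay 8 bases before it in Mcm5 and 22 bases before it in Top2a, and within the first 50 transcribed bases in Cdt1 and Plk1. A match of letters is a description of the sequence and was not tested for binding.

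Inhibitors of the cycle changed in both directions in the footpad. Cdkn2a, which encodes p16 and Arf, stood at 7.16 and 7.13 in footpad after against 8.91 and 9.16 in footpad before, and 9.48 and 9.51 in oral mucosa after against 9.47 and 9.49 in oral mucosa before, and its neighbour Cdkn2b, which encodes p15, at 6.58 and 6.29 in footpad after against 8.57 and 8.47 in footpad before, and 8.67 and 8.81 in oral mucosa after against 8.59 and 8.74 in oral mucosa before. Both fell in the footpad (changes -1.89 and -2.09) and were not called in the oral mucosa, with differences of -1.91 (SE 0.15, adjusted p = 2.82e-07) and -2.16 (SE 0.15, adjusted p = 7.99e-08). Cdkn1b, which encodes p27, rose in the footpad by 1.63 (difference 1.73 (SE 0.16, adjusted p = 9.45e-07)). Cdkn1a, the p53 target that encodes p21, stood at 10.32 and 10.34 in footpad after against 10.31 and 10.30 in footpad before, and 9.32 and 9.48 in oral mucosa after against 10.61 and 10.50 in oral mucosa before, low in oral mucosa after alone (difference 1.18 (SE 0.14, adjusted p = 9.12e-06)). Of the 16 measured cyclin-dependent kinase inhibitors and p53 targets, 5 rose and 3 fell in the footpad, and 1 rose and 4 fell in the oral mucosa.

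Differentiation genes fell in the oral mucosa and in part rose in the footpad. Of 11 measured genes of mucosal differentiation, 8 fell in the oral mucosa and none rose, and in the footpad 3 rose (Krt13, Scel and Emp1) and 1 fell (Tgm3). Krt4 lost the most, with 5.21 and 5.46 in oral mucosa after against 11.90 and 12.01 in oral mucosa before and a change of -6.63 (SE 0.18, adjusted p = 6.02e-11), while its footpad change of -0.26 was not called. Sprr3, a cornified envelope protein of mucosae, stood at 4.79 and 4.97 in footpad after against 5.41 and 5.38 in footpad before, and 6.41 and 6.15 in oral mucosa after against 10.68 and 10.61 in oral mucosa before. Serpinb11 stood at 3.92 and 3.70 in footpad after against 3.88 and 4.08 in footpad before, and 4.57 and 4.80 in oral mucosa after against 8.92 and 8.65 in oral mucosa before. Both were high in oral mucosa before alone. Scel, sciellin of the cornified envelope, was in contrast opposed, with 9.42 and 9.70 in footpad after against 6.34 and 6.20 in footpad before, and 6.75 and 7.14 in oral mucosa after against 9.32 and 9.29 in oral mucosa before. The difference of Scel was 5.64 (SE 0.23, adjusted p = 8.13e-10). Of 19 genes of epidermal differentiation, 4 rose in the footpad and 6 fell in the oral mucosa, with no call in the reverse direction in either. Krt1 stood at 8.70 and 8.76 in footpad after against 6.36 and 6.76 in footpad before, and 4.65 and 4.62 in oral mucosa after against 4.50 and 4.80 in oral mucosa before, and rose in the footpad alone (2.17 (SE 0.18, adjusted p = 5.27e-07), difference 2.18 (SE 0.26, adjusted p = 1.37e-05)). Cnfn, cornifelin, fell in the oral mucosa while it rose in the footpad, with 9.13 and 9.12 in footpad after against 6.49 and 6.56 in footpad before, and 7.85 and 7.65 in oral mucosa after against 10.11 and 9.81 in oral mucosa before. The difference of Cnfn was 4.82 (SE 0.19, adjusted p = 5.01e-10).

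The simple epithelium list and the cell junction list moved the same way. Of 20 genes of simple and glandular epithelia, 7 rose and 2 fell in the footpad, 0 rose and 10 fell in the oral mucosa, and 12 had a higher difference of responses. Ehf, an ETS factor related to Elf3, stood at 8.43 and 8.54 in footpad after against 5.43 and 5.89 in footpad before, and 7.74 and 8.02 in oral mucosa after against 9.37 and 9.15 in oral mucosa before. The difference of Ehf was 4.21 (SE 0.24, adjusted p = 1.12e-08). Krt19, a keratin of simple epithelia that hair follicles also express, stood at 6.98 and 7.53 in footpad after against 5.41 and 5.29 in footpad before, and 5.50 and 5.33 in oral mucosa after against 6.85 and 6.81 in oral mucosa before. The difference of Krt19 was 3.32 (SE 0.23, adjusted p = 8.97e-08). Epcam, an adhesion protein, rose in the footpad with 10.75 and 10.78 in footpad after against 7.75 and 7.78 in footpad before, and its oral mucosa change of -0.98 was not called. Of 27 junction genes, 7 rose and 2 fell in the footpad, and 0 rose and 8 fell in the oral mucosa. 5 junction genes were opposed, all of them of the tight junction (Cldn1, Cldn4, Ocln, Tjp3 and Marveld2). Cldn1, the claudin of the epidermal barrier, stood at 11.87 and 11.98 in footpad after against 8.39 and 8.56 in footpad before, and 9.71 and 9.85 in oral mucosa after against 11.39 and 11.54 in oral mucosa before. The difference of Cldn1 was 5.14 (SE 0.14, adjusted p = 3.13e-11). Ocln, occludin, stood at 9.34 and 9.26 in footpad after against 7.14 and 7.47 in footpad before, and 7.72 and 7.60 in oral mucosa after against 9.18 and 9.06 in oral mucosa before. The difference of Ocln was 3.46 (SE 0.16, adjusted p = 2.75e-09). In both, footpad before was the lowest group. Gjb2, connexin 26, ran against the list and fell in the footpad by 1.83.

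**Figure D3:**
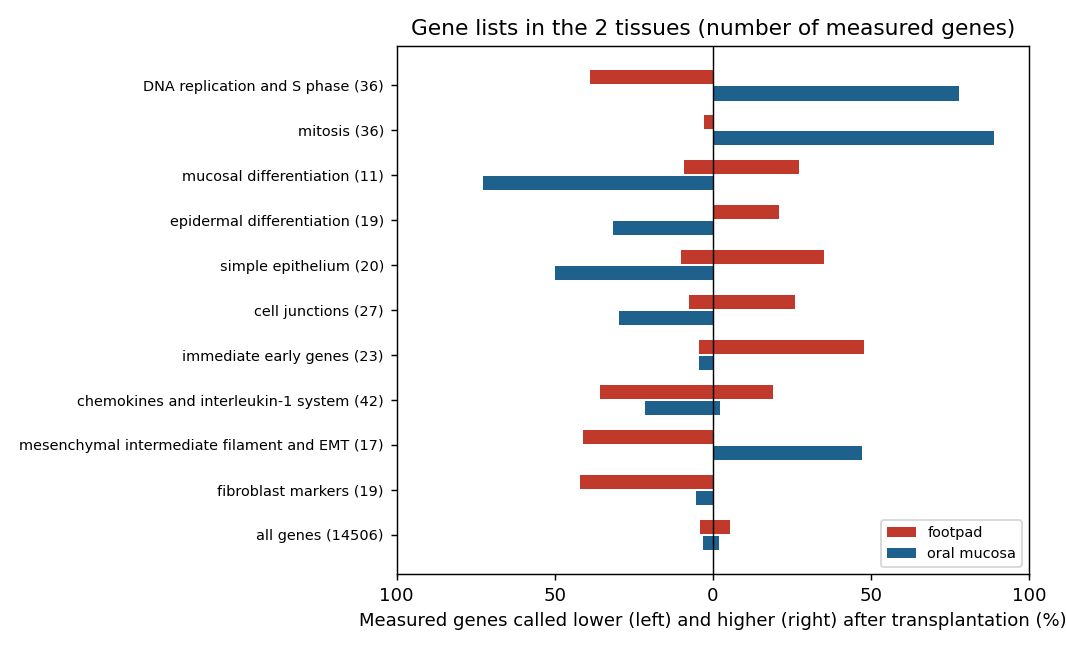
Share (x axis, percent) of the measured genes of each list (y axis, number of genes in parentheses) that were called lower (left of 0) or higher (right of 0) after transplantation in the footpad (red) and in the oral mucosa (blue), with all genes at the bottom. 28 of 36 S phase genes and 32 of 36 mitosis genes rose in the oral mucosa, against 1.91% of all genes.

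Mesenchymal genes rose in the oral mucosa and fell in the footpad. Of 17 genes tied to vimentin filaments and epithelial-mesenchymal transition, 8 rose and none fell in the oral mucosa, and 7 fell and none rose in the footpad. Vim, vimentin, stood at 10.07 and 10.04 in footpad after against 10.69 and 10.89 in footpad before, and 11.51 and 11.64 in oral mucosa after against 6.70 and 6.26 in oral mucosa before. Only oral mucosa before was low, and the change of 5.10 (SE 0.15, adjusted p = 7.62e-11) in the oral mucosa was accompanied by one of -0.74 in the footpad that was not called (difference -5.83 (SE 0.21, adjusted p = 2.42e-10)). Zeb1, a repressor of epithelial genes, stood at 4.34 and 4.34 in footpad after against 5.97 and 6.44 in footpad before, and 6.61 and 6.43 in oral mucosa after against 4.31 and 3.93 in oral mucosa before. The difference of Zeb1 was -4.26 (SE 0.23, adjusted p = 9.50e-09). Lgals1, galectin-1, stood at 7.02 and 6.46 in footpad after against 8.76 and 8.97 in footpad before, and 8.81 and 8.71 in oral mucosa after against 6.37 and 6.59 in oral mucosa before. The difference of Lgals1 was -4.40 (SE 0.23, adjusted p = 6.18e-09). Markers of fibroblasts moved with the footpad part of this. Of 19 measured fibroblast markers, 8 fell and 0 rose in the footpad, and 1 fell and 0 rose in the oral mucosa. Their log2 levels summed to 97.8 to 99.3 in footpad after, 117 to 117 in footpad before, 102 to 103 in oral mucosa after and 99.6 to 101 in oral mucosa before, and 4 of them lay below 4.77 in all 8 arrays, a level that the means of 40% of probe sets do not reach. Col1a2, of type I collagen, stood at 6.61 and 6.44 in footpad after against 8.63 and 8.68 in footpad before, and 7.03 and 7.03 in oral mucosa after against 6.47 and 6.87 in oral mucosa before. Dcn, decorin, stood at 3.71 and 3.76 in footpad after against 7.01 and 7.31 in footpad before, and 3.80 and 3.93 in oral mucosa after against 3.75 and 3.75 in oral mucosa before. Both were highest in footpad before. In the oral mucosa the mesenchymal list rose while no fibroblast marker was called higher, and the part of the fibroblast markers in the footpad result was not tested.

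Immediate early genes, which are induced within minutes of a stimulus, rose in the footpad. Of 23 measured, 11 rose and 1 fell (Fosl1) in the footpad (47.8% and 4.35%, against 5.25% and 4.02% of all genes). In the oral mucosa, 0 rose and 1 fell (Fos), and of all genes 1.91% rose and 3.07% fell there. Fos, a subunit of AP-1, was the opposed one and stood at 9.78 and 9.94 in footpad after against 7.86 and 8.20 in footpad before, and 7.78 and 8.37 in oral mucosa after against 9.57 and 9.57 in oral mucosa before. The difference of Fos was 3.32 (SE 0.22, adjusted p = 5.40e-08). Nr4a1, an orphan nuclear receptor, stood at 9.66 and 9.77 in footpad after against 6.05 and 6.17 in footpad before, and 8.19 and 8.67 in oral mucosa after against 8.66 and 8.64 in oral mucosa before, highest in footpad after and lowest in footpad before (difference 3.83 (SE 0.19, adjusted p = 3.06e-09)). Atf3, which is also induced by stress, stood at 11.32 and 11.42 in footpad after against 7.62 and 8.11 in footpad before, and 8.96 and 9.16 in oral mucosa after against 9.93 and 9.98 in oral mucosa before, and its low group was footpad before (difference 4.40 (SE 0.22, adjusted p = 4.33e-09)). The integrated stress response list was mixed, with 5 of 30 genes higher (16.7%) and 2 lower (6.67%) in the footpad. In the oral mucosa, 2 were higher (6.67%) and 0 lower. Nupr1, a small stress-induced chromatin protein, rose in both tissues but more in the footpad, with 11.21 and 11.36 in footpad after against 6.09 and 6.34 in footpad before, and 9.18 and 9.07 in oral mucosa after against 7.89 and 7.93 in oral mucosa before. The difference of Nupr1 was 3.86 (SE 0.20, adjusted p = 5.85e-09). Ddit4, an inhibitor of the kinase mTOR, rose in the footpad alone, with 11.76 and 11.80 in footpad after against 8.83 and 8.67 in footpad before and a difference of 3.18 (SE 0.13, adjusted p = 6.24e-10).

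In the list of chemokines and the interleukin-1 system, more genes fell than rose in both tissues, whereas in the interferon response list more rose. Antagonists of interleukin-1 and IL-36 were among the genes that rose in the footpad. Of 42 genes of chemokines and the interleukin-1 system, 8 rose and 15 fell in the footpad (19.0% and 35.7%, against 5.25% and 4.02% of all genes). In the oral mucosa, 1 rose and 9 fell (2.38% and 21.4%, against 1.91% and 3.07%). Cxcl1, a chemokine for neutrophils, fell in the footpad alone, with 8.60 and 8.54 in footpad after against 10.84 and 10.88 in footpad before, and 10.24 and 10.31 in oral mucosa after against 10.39 and 10.00 in oral mucosa before. The difference of Cxcl1 was -2.38 (SE 0.16, adjusted p = 5.33e-08). Il1rn, the antagonist of the interleukin-1 receptor, was opposed, with 9.49 and 9.64 in footpad after against 7.24 and 7.54 in footpad before, and 8.38 and 8.57 in oral mucosa after against 9.96 and 9.78 in oral mucosa before. The difference of Il1rn was 3.57 (SE 0.18, adjusted p = 4.01e-09). Il1r2, the decoy receptor, was high in footpad after alone, with 10.12 and 10.51 in footpad after against 5.06 and 4.73 in footpad before, and 4.59 and 4.75 in oral mucosa after against 4.05 and 4.49 in oral mucosa before (difference 5.02 (SE 0.28, adjusted p = 1.10e-08)), as was Il36rn, the antagonist of the IL-36 receptor, with 10.08 and 10.15 in footpad after against 5.39 and 5.29 in footpad before, and 6.20 and 6.05 in oral mucosa after against 6.65 and 6.30 in oral mucosa before. The difference of Il36rn was 5.13 (SE 0.25, adjusted p = 2.75e-09). Il1a, the alpha form of interleukin-1, fell in both tissues but more in the oral mucosa, with 3.82 and 4.20 in footpad after against 4.96 and 5.31 in footpad before, and 4.67 and 4.66 in oral mucosa after against 8.66 and 8.09 in oral mucosa before. The difference of Il1a was 2.59 (SE 0.34, adjusted p = 3.23e-05). Among 35 interferon response genes, 9 rose and 0 fell in the footpad (25.7% higher, against 5.25% of all genes, of which 4.02% were lower). In the oral mucosa, 4 rose and 1 fell (11.4% and 2.86%, against 1.91% and 3.07%). Oas1k, an oligoadenylate synthetase of a family of close copies that probes may not tell apart, stood at 10.33 and 10.70 in footpad after against 4.91 and 5.37 in footpad before, and 5.12 and 5.33 in oral mucosa after against 6.02 and 5.29 in oral mucosa before, high in footpad after alone (difference 5.81 (SE 0.32, adjusted p = 1.08e-08)). Of 11 genes of MHC class II presentation, 2 (RT1-DMa and RT1-DMb) rose in the footpad and 3 (RT1-Ba, RT1-Bb and Cd74) rose in the oral mucosa, none fell in either, and the difference was higher for 2 and lower for 4. RT1-Bb, a beta chain, rose in the oral mucosa alone, with 5.55 and 5.08 in footpad after against 6.02 and 5.91 in footpad before, and 8.41 and 8.44 in oral mucosa after against 4.64 and 5.35 in oral mucosa before. The difference of RT1-Bb was -4.08 (SE 0.31, adjusted p = 1.59e-07). Leukocyte markers, which would accompany immune cells of the rat, were called by limma for 0 of 18 genes in the footpad (3 with an unadjusted p under 0.05) and for 1, lower, in the oral mucosa. The difference of responses was higher for 2 of the 18 (11.1%, against 10.1% of all genes) and lower for 0. Their levels summed to 78.9 to 79.8 in footpad after, 78.8 to 81.4 in footpad before, 80.1 to 80.7 in oral mucosa after and 80.2 to 82 in oral mucosa before, with 12 below 4.77 in all 8 arrays.

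Matrix proteases fell and genes of the oxidant response rose more often than not where they were called in the footpad. Of 24 genes of matrix proteases and the plasminogen system, 9 fell (37.5%) and none rose in the footpad, and 3 rose (12.5%) and 2 fell (8.33%) in the oral mucosa. Over all genes, 5.25% rose and 4.02% fell in the footpad, and 1.91% rose and 3.07% fell in the oral mucosa. Mmp3, stromelysin-1, was opposed like Timp1, with 8.03 and 8.21 in footpad after against 9.24 and 9.37 in footpad before, and 10.48 and 10.40 in oral mucosa after against 8.99 and 8.44 in oral mucosa before. The difference of Mmp3 was -2.91 (SE 0.29, adjusted p = 2.62e-06). Of 24 genes of the prostaglandin pathway, 1 rose (4.17%) and 4 fell (16.7%) in the footpad, and 0 rose and 3 fell (12.5%) in the oral mucosa. Ptgs1, cyclooxygenase-1, fell in both tissues and more in the footpad, with 5.07 and 4.67 in footpad after against 9.87 and 9.98 in footpad before, and 7.98 and 8.06 in oral mucosa after against 9.35 and 9.29 in oral mucosa before. The difference of Ptgs1 was -3.76 (SE 0.16, adjusted p = 1.12e-09). Of 34 genes of glutathione and the oxidant response, 8 rose (23.5%) and 4 fell (11.8%) in the footpad, and 2 rose (5.88%) and none fell in the oral mucosa. Nqo1, a quinone reductase, rose in the footpad alone, with 11.04 and 11.17 in footpad after against 8.15 and 8.30 in footpad before, and 8.91 and 9.17 in oral mucosa after against 9.45 and 9.35 in oral mucosa before (difference 3.25 (SE 0.16, adjusted p = 3.06e-09)), the reverse of Gstm1. Of 23 genes of retinoid metabolism, 10 had a higher and 2 a lower difference of responses. Dhrs3, which reduces retinaldehyde to retinol, was opposed, with 7.63 and 7.54 in footpad after against 6.29 and 6.67 in footpad before, and 7.88 and 7.93 in oral mucosa after against 10.04 and 10.07 in oral mucosa before. The difference of Dhrs3 was 3.25 (SE 0.16, adjusted p = 3.85e-09).

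Signalling lists differed in how many members were called. Of 36 Wnt genes, 1 had a higher and 3 a lower difference of responses, against 10.1% higher and 7.16% lower of all genes. The largest difference belonged to Wnt5a, a ligand of the branch without beta-catenin, which stood at 6.06 and 5.83 in footpad after against 9.71 and 9.78 in footpad before, and 9.19 and 8.99 in oral mucosa after against 9.09 and 8.87 in oral mucosa before. The difference of Wnt5a was -3.91 (SE 0.16, adjusted p = 8.13e-10). Lgr4, a receptor for R-spondins, which amplify Wnt signals, stood at 10.04 and 10.15 in footpad after against 6.57 and 6.75 in footpad before, and 7.04 and 7.22 in oral mucosa after against 7.34 and 6.77 in oral mucosa before. The difference of Lgr4 was 3.35 (SE 0.23, adjusted p = 8.28e-08). Both changed in the footpad alone. Of 19 genes of ErbB ligands, receptors and their regulators, 7 had a higher and 3 a lower difference (36.8% and 15.8%). Erbb3, a receptor for neuregulins, was opposed, with 7.99 and 8.01 in footpad after against 5.45 and 5.71 in footpad before, and 6.13 and 5.94 in oral mucosa after against 7.59 and 7.31 in oral mucosa before (difference 3.83 (SE 0.21, adjusted p = 1.12e-08)), whereas Nrg1, which encodes such a ligand, fell in the footpad, with 7.45 and 7.36 in footpad after against 9.64 and 9.67 in footpad before, and 9.29 and 9.07 in oral mucosa after against 9.44 and 9.14 in oral mucosa before. The difference of Nrg1 was -2.14 (SE 0.14, adjusted p = 4.88e-08). With limma, 0 of the 21 measured genes of the homeobox clusters were called in either response or in the difference, and 8 had an unadjusted p under 0.05 in the difference. Without replicate 2 of oral mucosa before, 4 of them had a called lower difference, and without replicate 2 of oral mucosa after 2, while leaving out any of the 4 footpad arrays gave 1.

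The remaining lists are given against 10.1% of all genes higher and 7.16% lower in the difference of responses. There were 1 higher and 3 lower among 16 genes of the basal layer, 3 higher and 1 lower among 17 hair follicle factors and 2 higher and 1 lower among 22 Notch pathway genes. There were 4 higher and 7 lower among 34 genes of the BMP and TGF-beta pathways, 5 higher and 4 lower among 31 genes of glycolysis and lactate transport and 2 higher and 3 lower among 24 genes of the prostaglandin pathway. The cholesterol synthesis list had 7 higher and 0 lower among 19 genes (36.8% higher), and the serpins had 7 higher and 3 lower among 19 genes (36.8% higher and 15.8% lower). Of the Notch pathway genes 9.09% were higher and 4.55% lower, and of the prostaglandin pathway 8.33% and 12.5%. Of cells that the sort could also hold, there were 1 higher and 1 lower among 8 melanocyte and Merkel cell markers, 1 higher and 0 lower among 12 muscle and nerve markers, 3 higher and 1 lower among 13 sebaceous gland genes and 1 higher and 3 lower among 10 sweat gland markers. Of 10 endothelial markers, limma called 0, and 2 had an unadjusted p under 0.05.

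The 26 genes that rose and the 36 that fell in both tissues made up 4.61% of the genes called in the footpad and 8.58% of those called in the oral mucosa. Aldh3a1, an aldehyde dehydrogenase of exposed epithelia, stood at 7.73 and 8.37 in footpad after against 5.16 and 5.12 in footpad before, and 8.16 and 8.47 in oral mucosa after against 5.96 and 5.96 in oral mucosa before. Its changes were 2.91 in the footpad and 2.36 in the oral mucosa, and the difference of 0.55 (SE 0.25, adjusted p = 0.109) was not called. Glipr1 (6.16 and 6.29 in footpad after against 4.12 and 4.15 in footpad before, and 5.27 and 5.91 in oral mucosa after against 3.40 and 3.87 in oral mucosa before) and Palmd, palmdelphin (7.51 and 7.77 in footpad after against 5.01 and 5.33 in footpad before, and 6.25 and 6.17 in oral mucosa after against 4.12 and 4.50 in oral mucosa before), also rose in both. Their differences of 0.13 and 0.57 were not called. Casp1, the caspase that processes interleukin-1 beta, stood at 6.89 and 7.04 in footpad after against 5.00 and 5.23 in footpad before, and 5.80 and 6.10 in oral mucosa after against 3.36 and 3.30 in oral mucosa before, and was above oral mucosa in the footpad at both stages. The difference of Casp1, -0.77 (SE 0.21, adjusted p = 0.0121), missed the call on its size alone. Prtfdc1 (10.59 and 10.57 in footpad after against 5.80 and 6.37 in footpad before, and 9.70 and 9.80 in oral mucosa after against 7.68 and 7.65 in oral mucosa before) and Mgst1, a microsomal glutathione transferase (8.75 and 9.20 in footpad after against 7.23 and 7.10 in footpad before, and 8.55 and 8.54 in oral mucosa after against 5.35 and 5.43 in oral mucosa before), rose in both but not equally, Prtfdc1 more in the footpad (difference 2.41 (SE 0.20, adjusted p = 4.53e-07)) and Mgst1 more in the oral mucosa (difference -1.34 (SE 0.20, adjusted p = 1.01e-04)).

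Among the genes lower in both, Cxcr2, a receptor of neutrophil chemokines, stood at 4.09 and 4.36 in footpad after against 9.18 and 9.36 in footpad before, and 7.63 and 6.97 in oral mucosa after against 9.42 and 8.98 in oral mucosa before, and Csf3, granulocyte colony-stimulating factor, at 5.65 and 5.21 in footpad after against 8.40 and 8.73 in footpad before, and 7.18 and 6.87 in oral mucosa after against 9.14 and 8.78 in oral mucosa before. Both fell more in the footpad (differences -3.15 (SE 0.28, adjusted p = 8.41e-07) and -1.21 (SE 0.24, adjusted p = 0.0013)). The difference of Csf3 was close to the 2-fold limit, and without replicate 2 of footpad after it was -0.98, no longer called. Snurf, of an imprinted locus with overlapping transcripts, stood at 5.75 and 5.27 in footpad after against 7.59 and 7.78 in footpad before, and 6.99 and 7.13 in oral mucosa after against 9.42 and 9.20 in oral mucosa before. Parvb, a protein of focal adhesions, stood at 5.47 and 5.28 in footpad after against 7.19 and 7.31 in footpad before, and 5.61 and 5.35 in oral mucosa after against 7.80 and 7.73 in oral mucosa before. Gdpd2, a glycerophosphodiester phosphodiesterase, stood at 5.43 and 5.37 in footpad after against 7.79 and 7.89 in footpad before, and 5.81 and 5.62 in oral mucosa after against 7.69 and 7.56 in oral mucosa before. Bmp3, an atypical bone morphogenetic protein, stood at 5.30 and 4.49 in footpad after against 6.65 and 7.02 in footpad before, and 5.38 and 5.32 in oral mucosa after against 7.29 and 6.95 in oral mucosa before. The differences of these 4 genes, 0.08, 0.41, -0.53 and -0.17, were not called, with SE from 0.15 to 0.30. That of Gdpd2 (limma adjusted p = 0.0147) missed the call on its size alone.

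A larger set was called in 1 tissue only, together with a called difference of responses: 960 genes in the footpad and 394 in the oral mucosa. Here and above, a change in 1 tissue alone means that the other was not called, which includes changes under 2-fold. With limma, Tmem88 rose by 0.88 in the oral mucosa (adjusted p = 7.06e-05) and H1f1 changed by -0.87 in the footpad (adjusted p = 2.83e-05). Serpinb9 and Mcpt4 changed little in the oral mucosa (-0.13 and 0.03). In the footpad, 536 of these rose and 424 fell. Sult1a1, a phenol sulfotransferase, stood at 9.06 and 9.65 in footpad after against 5.26 and 4.81 in footpad before, and 5.81 and 6.40 in oral mucosa after against 7.09 and 6.91 in oral mucosa before. The difference of Sult1a1 was 5.22 (SE 0.37, adjusted p = 1.03e-07). Mcpt4, a mast cell protease, stood at 7.21 and 7.64 in footpad after against 2.32 and 2.17 in footpad before, and 2.27 and 2.40 in oral mucosa after against 2.39 and 2.21 in oral mucosa before. The difference of Mcpt4 was 5.15 (SE 0.17, adjusted p = 1.29e-10). It was the only one called among 11 measured mast cell markers, of which 9 lay below 4.77 in all 8 arrays. Lower in the footpad, Serpinb9, an inhibitor of granzyme B, stood at 4.64 and 4.50 in footpad after against 10.48 and 10.55 in footpad before, and 9.00 and 8.92 in oral mucosa after against 9.22 and 8.95 in oral mucosa before. The difference of Serpinb9 was -5.82 (SE 0.14, adjusted p = 2.90e-11). Slc16a3, a lactate exporter, stood at 6.01 and 5.33 in footpad after against 10.48 and 10.49 in footpad before, and 10.76 and 10.64 in oral mucosa after against 10.13 and 9.70 in oral mucosa before. The difference of Slc16a3 was -5.60 (SE 0.24, adjusted p = 1.12e-09). Has2, a hyaluronan synthase, stood at 5.53 and 5.46 in footpad after against 9.62 and 9.72 in footpad before, and 7.25 and 7.13 in oral mucosa after against 6.59 and 6.13 in oral mucosa before. The difference of Has2 was -5.01 (SE 0.30, adjusted p = 1.84e-08). Tmem88 stood at 5.63 and 5.42 in footpad after against 9.01 and 9.32 in footpad before, and 8.69 and 8.75 in oral mucosa after against 7.98 and 7.70 in oral mucosa before. The difference of Tmem88 was -4.52 (SE 0.16, adjusted p = 2.42e-10). In Serpinb9, Slc16a3, Has2 and Tmem88 footpad after was the lowest group of the 4. In the oral mucosa, 177 genes rose and 217 fell. Beside Vim and RT1-Bb, the rises were led by Ocm, a calcium-binding protein, with 11.89 and 11.97 in oral mucosa after against 8.68 and 8.58 in oral mucosa before, and by H1f1, a linker histone with close copies, with 10.78 and 10.75 in oral mucosa after against 8.46 and 8.08 in oral mucosa before. Their differences were -3.68 (SE 0.13, adjusted p = 1.56e-10) and -3.36 (SE 0.16, adjusted p = 2.52e-09). Beside Krt4, Serpinb11 and Sprr3, the falls were led by Tceal9, with 3.56 and 3.78 in oral mucosa after against 6.91 and 6.77 in oral mucosa before (difference 3.99 (SE 0.20, adjusted p = 3.43e-09)).

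Set against each other at each stage, the tissues exchanged places for many genes. By construction, the difference of responses equals footpad minus oral mucosa after less the same before, so these values describe it and are no further evidence. Before transplantation 403 genes were higher and 737 lower in the footpad (7.86% of genes), and after it 470 were higher and 334 lower (5.54%). 176 genes were lower in the footpad before and higher after, and 53 the reverse. Against these, 15 were higher and 59 lower in the footpad at both stages. Krt10 stood 2.65 above oral mucosa in the footpad after and 2.18 before transplantation, and Tbx15, a T-box factor of limb and skin, 1.95 after and 1.51 before. Kept lower in the footpad, Gucy1a2, a subunit of soluble guanylate cyclase, had differences of -2.77 after and -3.00 before, and Plod2, which hydroxylates collagen lysines, -4.97 after and -2.50 before. Of the 140 genes that rose in the footpad and fell in the oral mucosa, 132 were lower in the footpad before and 106 higher in it after. The distance between group means over all probe sets (the root of the summed squared log2 differences) was 95.2 between footpad after and footpad before and 75.4 between oral mucosa after and oral mucosa before. It was 81 between the tissues after transplantation and 89 before it. The smallest of the 6 distances, 55.5, lay between oral mucosa after and footpad before.

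**Figure D4:**
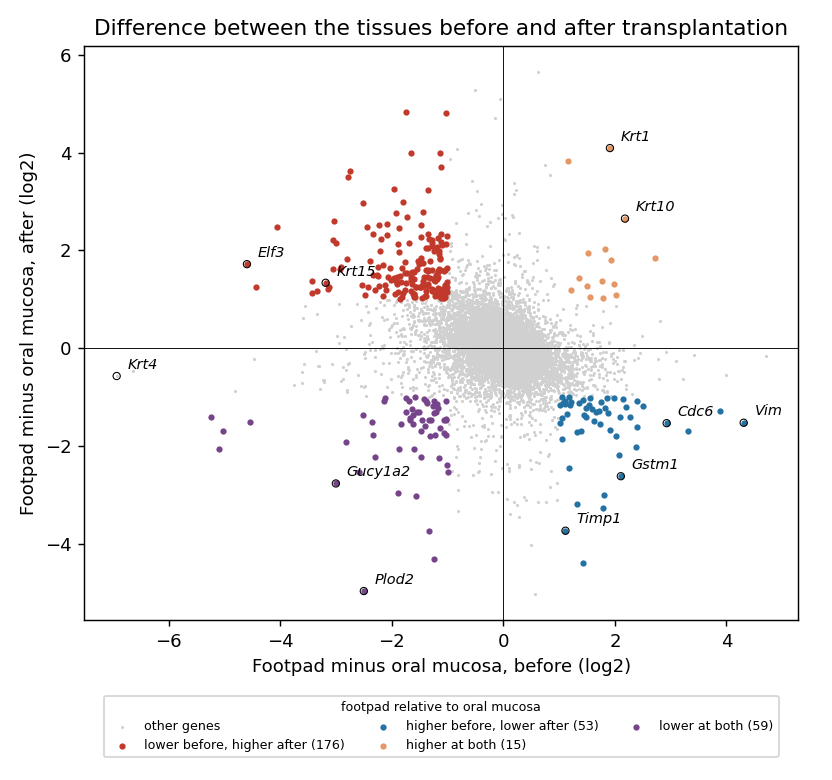
Footpad minus oral mucosa (log2) before transplantation (x axis) and after it (y axis), each point 1 of 14506 genes. The 176 genes in red crossed to higher in the footpad, the 53 in blue to lower, and 15 (orange) and 59 (purple) kept their side.

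Vagina, esophagus and trachea were measured on 4 arrays each, 2 after and 2 before. Their responses took no part in choosing the opposed genes, but their arrays shared in the estimate of spread and the choice of probe set. Fitted on the 8 arrays alone, the opposed genes numbered 140 and 52. Of the 140 genes higher in the footpad and lower in the oral mucosa, 36 were called lower and 2 higher in the vagina (25.7% lower, against 2.41% of all genes, and 1.43% higher, against 0.62%). In the esophagus 20 were lower and 0 higher (14.3% lower, against 0.765%). In the trachea 6 were lower and 14 higher (10% higher, against 0.627%, and 4.29% lower, against 0.972%). Of the 53 genes with the reverse pattern, 7 were higher and 5 lower in the vagina (13.2% and 9.43%, against 0.62% and 2.41% of all genes). There were 12 higher and 1 lower in the esophagus (22.6% and 1.89%, against 0.572% and 0.765% of all genes). In the trachea 4 were higher and 14 lower (7.55% and 26.4%, against 0.627% and 0.972%), so calls in both directions exceeded the share over all genes. Counted by sign alone, 119 of the 140 were below 0 in the vagina, 124 in the esophagus and 42 in the trachea. The S phase list had a median change of 0.60 in the vagina (2 of 36 higher), 0.62 in the esophagus (6 higher) and -0.59 in the trachea (8 lower). In the medians over each opposed class and over the S phase list, vagina and esophagus had the sign of the oral mucosa and trachea that of the footpad, and each median was smaller in size than that of the tissue whose sign it had. This did not hold for every list. The mitosis list kept these signs, but its median was larger in size in the trachea (-0.54) than in the footpad (-0.18). The mesenchymal list had the sign of the oral mucosa (0.44) in the esophagus (0.17) but not in the vagina (-0.28). Single genes did not all follow the medians of their class. Krt15 changed by -3.57 in the vagina and -3.34 in the esophagus, more than the -1.12 of the oral mucosa. In the trachea Krt15 was called lower (-1.08), opposite in sign to the 3.40 of the footpad.

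**Figure D5:**
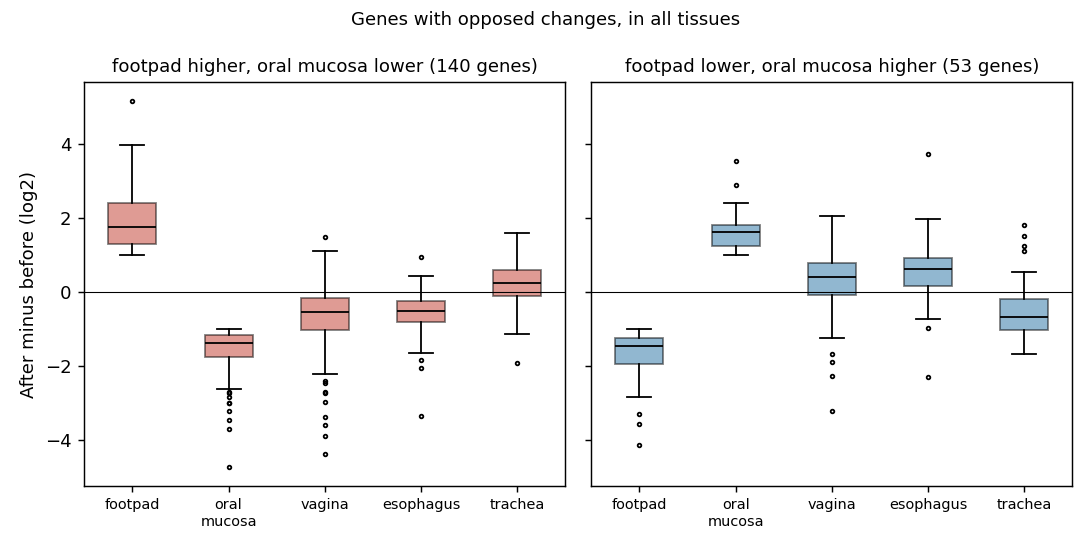
Change after transplantation (y axis, log2, after minus before) in 5 tissues (x axis) of the 140 genes higher in the footpad and lower in the oral mucosa (left) and of the 53 with the reverse pattern (right). Boxes span the quartiles over genes with a line at the median, whiskers reach the last gene within 1.5 box lengths, and footpad and oral mucosa are shown for scale, since they chose the genes. In the left panel the medians are -0.55 in the vagina, -0.51 in the esophagus and 0.26 in the trachea.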

How the data were processed

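Cultured epithelial cells were hybridized, 100 ng of total RNA per array, to rat whole-transcript arrays (Affymetrix). The authors deposited log2 intensities per probe set made with RMA in Affymetrix Expression Console, which corrects background, forces all arrays to 1 distribution and summarizes probes by median polish, so a shift shared by all genes is removed. The sources used here give neither versions, nor the annotation build, nor which arrays entered RMA together. Of 29215 probe sets, 15310 had 1 gene symbol, 323 several and 13582 none here, and 14506 symbols were kept. All 20 arrays in 10 groups were fitted with limma 3.58.1 (R 4.3.3), without further terms (10 residual and 3.64 prior degrees of freedom), and p-values were adjusted over all probe sets within each contrast. Members and gene lists were chosen with earlier results of these data known. Genes were named by rank: the 8 largest differences in each opposed class, 6 shared genes in each direction by their smaller change, 4 in each direction called in 1 tissue, Krt15 and Elf3, and list members called in the difference. Pitx1, Tfap2b and Hoxa7 were chosen after their values were seen. Motifs were searched in RefSeq promoters (GRCr8). Other cell types of the study (whisker, thymus) were not used. Alternatives are given below.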

Additional observations from a re-analysis of the deposited data

Results flagged for a closer look

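The response to transplantation differed between footpad and oral mucosa by limma's test of the difference itself for 2254 probe sets with a higher and 1517 with a lower value in the footpad response. The genes named above that passed it are given here with their difference, footpad response minus oral mucosa response, in log2 units. Among genes called higher in the footpad and lower in the oral mucosa, it was 6.17 for Krt13, 4.53 for Krt15, 6.32 for Elf3, 3.57 for Il1rn, 5.14 for Cldn1, 3.32 for Fos, 6.57 for Il10, 6.54 for Tcp11l2 and 6.37 for Slc30a2. In the same class it was 6.30 for Ephx1, 5.84 for Serpinb7, 5.69 for Ppbp, 5.64 for Scel, 2.16 for Emp1, 4.82 for Cnfn, 4.21 for Ehf, 3.32 for Krt19 and 3.21 for Cldn4. In the same class it was 3.46 for Ocln, 2.52 for Tjp3, 2.33 for Marveld2, 3.25 for Dhrs3 and 3.83 for Erbb3. Among genes called lower in the footpad and higher in the oral mucosa, it was -4.85 for Timp1, -4.72 for Gstm1, -4.46 for Cdc6, -5.17 for Cd200r1, -5.06 for Acap1, -4.88 for Emp3, -4.81 for Slc7a8, -4.55 for Nppb and -4.53 for Car2. In the same class it was -2.85 for Mybl2, -3.40 for Mcm5, -3.21 for Cdt1, -3.28 for Tyms, -4.26 for Zeb1, -4.40 for Lgals1 and -2.91 for Mmp3. Among genes called in the same direction in both tissues, it was 1.45 for Tgm3, 3.86 for Nupr1, 2.59 for Il1a, -3.76 for Ptgs1, 2.41 for Prtfdc1, -1.34 for Mgst1, -3.15 for Cxcr2 and -1.21 for Csf3. Among genes called higher in the footpad alone, it was 2.18 for Krt1, 2.49 for Pitx1, 1.73 for Cdkn1b, 3.98 for Epcam, 3.83 for Nr4a1, 4.40 for Atf3, 3.18 for Ddit4, 5.02 for Il1r2 and 5.13 for Il36rn. In the same class it was 5.81 for Oas1k, 2.14 for RT1-DMa, 1.78 for RT1-DMb, 3.25 for Nqo1, 3.35 for Lgr4, 5.22 for Sult1a1 and 5.15 for Mcpt4. Among genes called lower in the footpad alone, it was -2.61 for Ccne1, -1.91 for Cdkn2a, -2.16 for Cdkn2b, -2.18 for Gjb2, -2.49 for Col1a2, -3.54 for Dcn, -1.07 for Fosl1, -2.38 for Cxcl1 and -3.91 for Wnt5a. In the same class it was -2.14 for Nrg1, -5.82 for Serpinb9, -5.60 for Slc16a3, -5.01 for Has2, -4.52 for Tmem88 and -2.46 for Plod2. Among genes called higher in the oral mucosa alone, it was -1.78 for Top2a, -2.13 for Plk1, -5.83 for Vim, -1.86 for RT1-Ba, -4.08 for RT1-Bb, -2.30 for Cd74, -3.68 for Ocm and -3.36 for H1f1. Among genes called lower in the oral mucosa alone, it was 6.37 for Krt4, 1.18 for Cdkn1a, 3.84 for Sprr3, 3.93 for Serpinb11 and 3.99 for Tceal9. Among genes called in neither tissue, it was -1.15 for Tfap2b and -1.03 for Tp63. With 2 arrays in a group, no single array could be set apart from its group.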

How the results depend on the processing

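Under median centering, without the lowest 40% of probe sets by mean, on the 8 arrays alone, with a variance trend and robust prior, with a replicate block and with probe sets of a symbol averaged where genes were counted, the 39 counts of probe sets, gene classes and leading lists (29 with probe sets averaged) were within 1.5 times their main value. Of 191 other list counts, 149 stayed within it in these fits and without each array, and 42 did not, by at most 4 genes, 1 of them with a main count over 4. The counts in vagina, esophagus and trachea were not recomputed. The replicate block gave 2257 probe sets higher and 1515 lower in the difference of responses and changed no call of a named gene. Replicate numbers did not pair the samples: correlations of replicate differences between groups ran from -0.41 to 0.12 over 6 pairs of groups. Leaving out each of the 8 arrays in turn gave 2009 to 2590 probe sets higher and 1425 to 1892 lower in the difference, 123 to 162 and 44 to 70 opposed genes, and 24 to 27 and 33 to 46 shared ones. The group left with 1 array was then assumed to vary like the others. In each of these fits all 193 opposed genes that were measured kept opposite signs. This was largely fixed by their choice, since each was picked for changes beyond 2-fold in opposite directions. In the main fit their differences were at least 2.12 in size in the class higher in the footpad and 2.09 in the reverse class. Under median centering, 140 of the 140 and 46 of the 53 were again called in opposite directions. The size limit moved most counts, because it sets which genes are counted. When limma's treat tested against a 2-fold change, there were 903 probe sets higher and 571 lower in the difference of responses, 414 probe sets higher and 281 lower in the footpad response and 153 probe sets higher and 211 lower in the oral mucosa response. Footpad against oral mucosa gave 217 probe sets higher and 165 lower after and 231 probe sets higher and 408 lower before transplantation. The opposed genes numbered 31 higher in the footpad and 15 lower, the shared ones 8 higher and 9 lower, and those called in 1 tissue with a difference 423 in the footpad and 156 in the oral mucosa. Genes that crossed between the tissues numbered 43 upward and 10 downward in the footpad, and 6 stayed higher and 13 lower. The S phase list then had 13 genes higher in the oral mucosa and 7 lower in the footpad, and the mitosis list 18 higher in the oral mucosa and 20 lower in the difference. Simple epithelium genes lower in the oral mucosa numbered 5, junction genes with a higher difference 7, mesenchymal genes higher in the oral mucosa 5, inflammation genes lower in the footpad 8 and in the difference 6, and fibroblast markers lower in the footpad 5. With a fold over 1.5 there were 4006 probe sets higher and 3768 lower in the difference of responses, 2865 probe sets higher and 2125 lower in the footpad response and 1149 probe sets higher and 1604 lower in the oral mucosa response. Footpad against oral mucosa gave 2191 probe sets higher and 1444 lower after and 1761 probe sets higher and 2395 lower before transplantation. The opposed genes numbered 471 higher in the footpad and 230 lower, the shared ones 80 higher and 129 lower, and those called in 1 tissue with a difference 1962 in the footpad and 723 in the oral mucosa. Genes that crossed between the tissues numbered 529 upward and 293 downward in the footpad, and 46 stayed higher and 178 lower. Immediate early genes higher in the footpad numbered 17. With no fold threshold there were 4946 probe sets higher and 4966 lower in the difference of responses, 4848 probe sets higher and 4357 lower in the footpad response and 2732 probe sets higher and 3218 lower in the oral mucosa response. Footpad against oral mucosa gave 4124 probe sets higher and 3452 lower after and 4078 probe sets higher and 4173 lower before transplantation. The opposed genes numbered 1122 higher in the footpad and 743 lower, the shared ones 225 higher and 396 lower, and those called in 1 tissue with a difference 2494 in the footpad and 990 in the oral mucosa. Genes that crossed between the tissues numbered 1198 upward and 950 downward in the footpad, and 232 stayed higher and 475 lower. S phase genes lower in the footpad then numbered 27, immediate early genes higher in it 18 and fibroblast markers lower in it 14. Among genes named above, differences that were not called changed sign when 1 array was left out. Snurf, at most 0.32 without footpad after replicate 2, was -0.16 without footpad after replicate 1, -0.01 without footpad before replicate 1 and -0.03 without oral mucosa before replicate 1. Bmp3, at the lowest -0.58 without footpad after replicate 1, was 0.24 without footpad after replicate 2, 0.02 without footpad before replicate 2 and 0.00107 without oral mucosa before replicate 2. Glipr1, at most 0.45 without oral mucosa after replicate 2, was -0.19 without oral mucosa after replicate 1 and -0.10 without oral mucosa before replicate 2. Hoxa7 was -0.65 without oral mucosa before replicate 2, its lowest, and 0.21 without oral mucosa before replicate 1. The difference of Fosl1 lost its call under centering (-0.90), without oral mucosa after replicate 1 (-0.98) and without oral mucosa before replicate 2 (-0.86). The causes were not tested. With 2 cultures per group, no detection calls and a low end where values cannot be told from background, folds of genes near that end are uncertain.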
